A study of Mus musculus with 11 samples.

Results

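The amino acid transporter genes of 7 solute carrier families were followed across colonic epithelium. The epithelium had or lacked the miR-181a1-b1 and miR-181a2-b2 microRNA clusters, and had or had not met chemical injury. The members are the rows whose symbol is Slc1a, Slc3a, Slc6a, Slc7a, Slc36a, Slc38a or Slc43a followed only by digits, a rule on symbols that uses no measured value. That gave 61 of the 54513 rows of the gene table. Of these, 43 passed the filter on low counts and were tested, and 18 did not pass. The 18 had at most 19 counts in any library, the highest being Slc6a11, and Slc7a12 had 0 counts in all 11 libraries. Slc6a20a and Slc6a20b, whose symbols end in a letter, fall outside the naming rule.

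The libraries were made from polyadenylated RNA of Percoll-enriched colonic epithelial cells, the density step serving to take out lymphocytes. There were 3 libraries of DSS DKO, 3 of DSS WT, 3 of baseline DKO and 2 of baseline WT. DKO mice lacked the miR-181a1-b1 and miR-181a2-b2 clusters together, and WT mice were wild type. DSS mice were given dextran sulphate sodium, a polymer toxic to the lining of the large bowel, at 2% through 7 days, and cells were taken after a further 2 days of recovery, whereas the other libraries are labelled baseline. The treatment text of the labels is the same for all libraries, so baseline is taken from the treatment label and the library names. The labels name no strain, age, sex, promoter or Cre, so strain and deletion cannot be told apart. The library names call the replicates biological but do not say whether each library came from a separate mouse. The p-values therefore measure only the spread between samples, which may not be that between mice.

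Amino acids cross the intestinal epithelium by uptake through carriers of the apical membrane and release through carriers of the basolateral membrane. The colon meets few dietary amino acids, and its carriers are known mainly for taking up amino acids and related solutes such as taurine and creatine from the lumen and the blood for the cells' own use. Some carriers are pairs, in which a light chain of the Slc7 family does the transport and a heavy subunit, Slc3a1 or Slc3a2, brings it to the membrane. Members were grouped here by their textbook place in epithelium as apical (9), basolateral (8), heavy subunits (2), plasma membrane with no side assigned (16), lysosomal or other intracellular (6), neurotransmitter, osmolyte and creatine carriers (9), glial and neuronal glutamate carriers (4) and members with no assigned role (7).

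Each library held 41631951 to 52761900 counts, of which the 61 members took 0.213% to 0.294%. Epithelial markers were abundant in every group, with the epithelial adhesion gene Epcam at 1096 to 1293 CPM in DSS DKO, 1337 to 1432 in DSS WT, 1396 to 1669 in baseline DKO and 1204 to 1758 in baseline WT. CPM is the count scaled to library size with TMM, a correction for library composition. Xist was at 633 to 716 CPM in DSS DKO and 783 to 906 in DSS WT, against 6.75 to 14.5 CPM in the 5 baseline libraries. The Y-linked Ddx3y was at 0.162 to 0.204 CPM in DSS DKO and 0.587 to 0.895 in DSS WT, against 42.6 to 54.9 CPM at baseline, so sex cannot be told apart from DSS. Rn18s-rs5, an 18S ribosomal RNA entry, took 23.0% of counts in replicate 1 of baseline DKO and 8.46% in its replicate 2, but 0.128% to 1.59% elsewhere, and results that rest on those 2 libraries are given without them below. In bulk RNA, fewer cells of a type and less RNA per cell cannot be told apart.

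The most abundant member per length was Slc6a14, the broad carrier of neutral and cationic amino acids of the apical membrane. Its level per exon length, in CPM per kb, was 193 ± 24.5 in DSS DKO, 268 ± 23.4 in DSS WT, 234 ± 9.35 in baseline DKO and 220 ± 26.6 in baseline WT (SD, n = 3, 3, 3 and 2). Slc1a5, the glutamine and neutral amino acid exchanger ASCT2, ranked next in each of the 4 groups, at 66.3 ± 7.26, 48.1 ± 4.02, 83.2 ± 7.33 and 87.1 ± 7.86 CPM per kb in DSS DKO, DSS WT, baseline DKO and baseline WT. The next places differed between groups. In DSS DKO they went to Slc38a2 (38.8 ± 0.904 CPM per kb), the sodium-coupled carrier SNAT2, to Slc6a6 (32.2 ± 5.71), the taurine transporter, and to Slc6a8 (22.4 ± 16.1), the creatine transporter. In baseline WT they went to Slc6a8 (58.1 ± 10.5), Slc38a2 (27.0 ± 1.26) and Slc6a6 (23.2 ± 3.37). Some neighbours in these orders did not differ beyond their SDs, namely Slc6a6, Slc6a8 and Slc3a2 (22.0 ± 2.16) in DSS DKO, and Slc38a2, Slc6a6 and Slc36a1 (20.4 ± 5.78) in baseline WT. At the other end, 7 of the 43 tested members stayed under 1 CPM in every group mean.

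**Figure D1:**
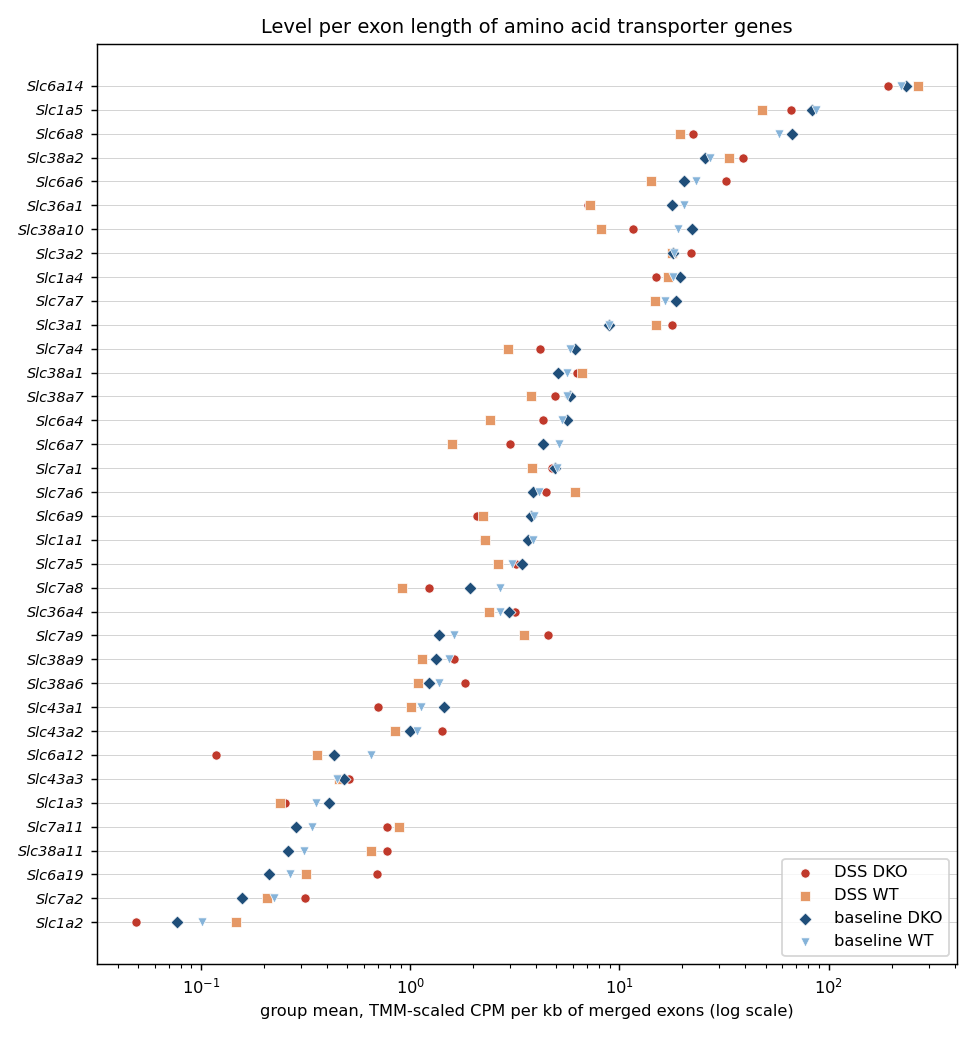
Group mean level per exon length of the 36 members with a mean of at least 1 CPM in some group, in TMM-scaled CPM per kb of merged exons on a log axis. Slc6a14 and Slc1a5 lead in every group.

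Summed over all 61 members, the levels were 2351 to 2616 CPM in DSS DKO and 2200 to 2389 in DSS WT, against 2673 to 2914 in baseline DKO and 2691 to 2792 in baseline WT, and no DSS library reached a baseline one. The apical members summed to 934 to 1090 CPM in DSS DKO and 1105 to 1257 in DSS WT, without overlap, and to 1239 to 1321 in baseline DKO and 1252 to 1294 in baseline WT. The basolateral members were highest in DSS DKO, at 486 to 543 CPM in DSS DKO and 405 to 468 in DSS WT, against 383 to 402 in baseline DKO and 405 to 407 in baseline WT. The heavy subunits summed to 111 to 125 CPM in DSS DKO, 92.9 to 100 in DSS WT, 79.7 to 86.5 in baseline DKO and 81.5 to 87.1 in baseline WT. These sums were not tested, and 1 abundant gene weighs most in each, Slc6a14 among the apical members, Slc38a2 among the basolateral ones and Slc3a2 among the heavy subunits.

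After DSS, DKO epithelium had more RNA of the taurine transporter Slc6a6, of the glutamine exchanger Slc1a5, of the basolateral neutral amino acid carrier Slc43a2, and of Slc6a7 and Slc38a6 than WT epithelium. It had less of the apical Slc6a14, of the basolateral exchanger Slc7a6, of the glial glutamate carrier Slc1a2 and of the betaine and GABA carrier Slc6a12. These 9 of the 43 tested members (20.9%) passed edgeR's quasi-likelihood test at an adjusted p under 0.05, 5 higher and 4 lower in DKO, where 11.2% of all genes tested passed (5.26% higher and 5.98% lower). The median log2 fold change of the 43 was 0.30, against 0.03 over all genes. By role, 1 of 7 tested apical members was higher and 1 lower, as were 1 and 1 of 8 basolateral members and 1 and 1 of 5 neurotransmitter, osmolyte and creatine carriers. Neither heavy subunit and none of 4 intracellular members passed. Apart from Slc6a6, all of these calls were lost when the fit was restricted to the 2 DSS groups (adjusted p 0.0504 to 0.0807), without DSS DKO replicate 2 (0.0542 to 0.188), without DSS WT replicate 2 (0.0582 to 0.137) or without DSS WT replicate 3 (0.0663 to 0.162). No call changed direction in any of the 20 alternatives.

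**Figure D2:**
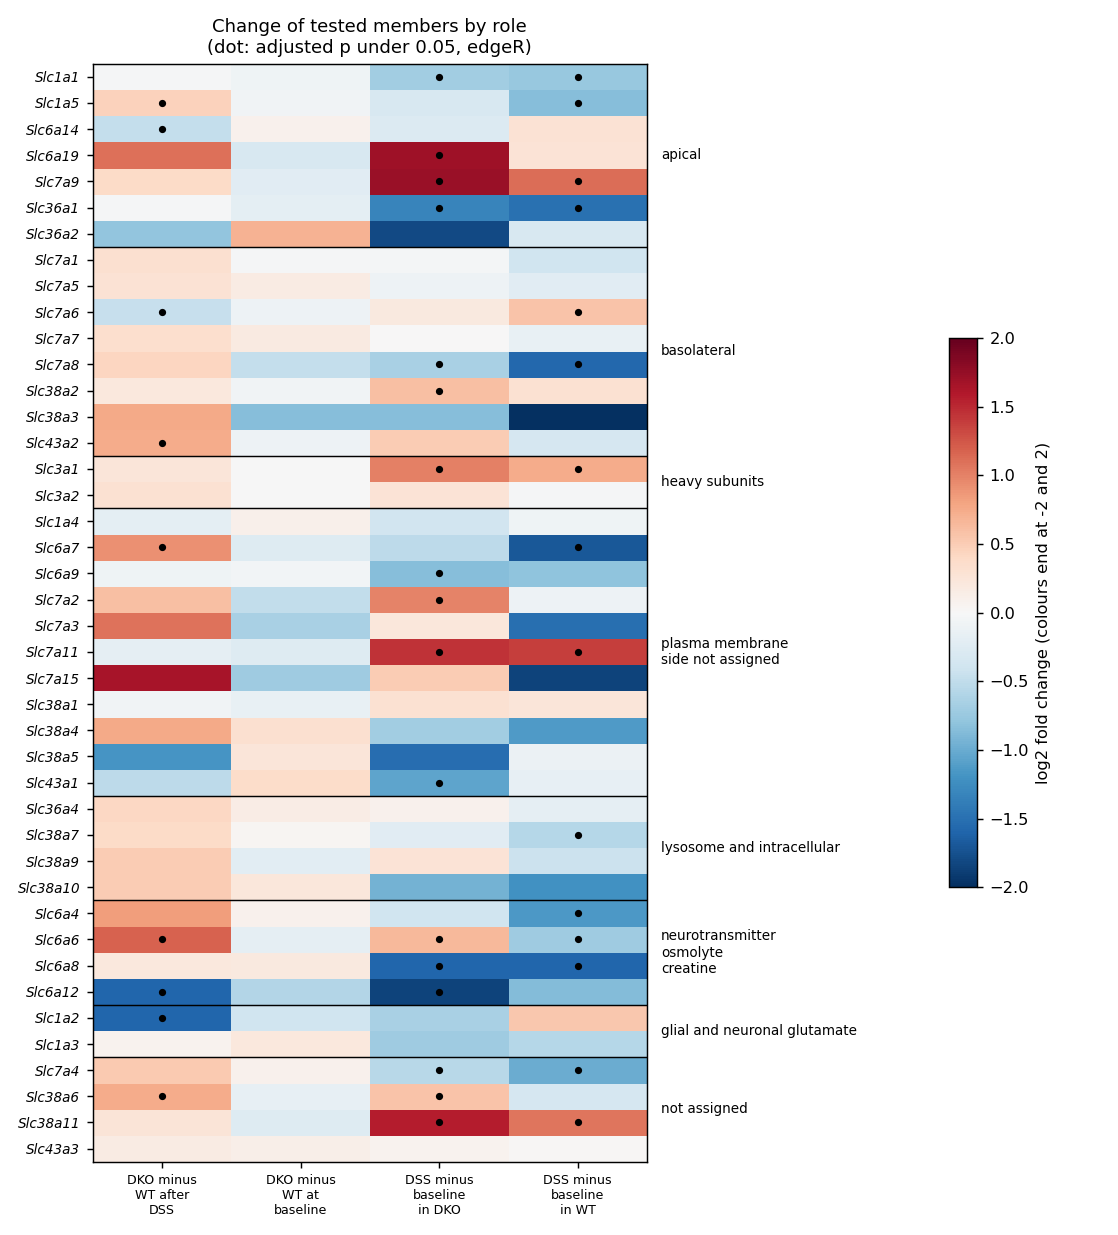
Log2 fold change of 42 of the 43 tested members in the 4 comparisons, grouped by role, with colours ending at -2 and 2 and a dot where the adjusted p was under 0.05 in edgeR's test. The dots fill 9, 0, 17 and 15 cells of the 4 columns from left to right.

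Slc6a6, at chr6:91684053-91759066 on the plus strand of GRCm38, carries taurine and beta-alanine with sodium and chloride and serves cell volume control. Its level was 231, 259 and 325 CPM in DSS DKO, against 123, 115 and 121 in DSS WT, and 182, 182 and 155 in baseline DKO, against 216 and 176 in baseline WT. Every DSS DKO library was above every other library and every DSS WT library below every other, while the baseline genotypes overlapped. In edgeR's test the log2 fold change of DKO against WT was 1.18 ± 0.14 (SE, adjusted p = 0.000744) after DSS and -0.18 ± 0.15 (adjusted p = 1) at baseline. With DSS, the change from baseline was 0.65 ± 0.14 (adjusted p = 0.0057) in DKO and -0.71 ± 0.15 (adjusted p = 0.00452) in WT. The difference between the genotype effects after DSS and at baseline, tested directly as an interaction, was 1.37 ± 0.20 (adjusted p = 0.0123). Slc6a6 was the only member of the 43 tested to pass that test, which 1.57% of all genes passed (0.773% higher and 0.794% lower). The call after DSS held in all 20 alternatives, at 1.04 to 1.29. The interaction call was lost without baseline WT replicate 1 (adjusted p = 0.0694) and without both 18S-rich libraries (0.0502). The fall in WT was lost without baseline WT replicate 1 (0.0612) and the rise in DKO without both 18S-rich libraries (0.0641).

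The deleted microRNAs pair with messages through bases 2 to 8 of their mature strand, the seed, given in capitals below because the members' 3′ UTRs were searched for its complement. The sequences are RefSeq's for GRCm38.p6, 5′ to 3′. miR-181a-5p is encoded at chr1:137966468-137966490 and chr2:38852741-38852763, and miR-181b-5p at chr1:137966650-137966673 and chr2:38853845-38853868, all on the plus strand.
mmu-miR-181a-5p: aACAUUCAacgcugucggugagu
mmu-miR-181b-5p: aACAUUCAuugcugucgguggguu
Both mature forms share 1 seed, so the same letters were searched for both.

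The longest annotated 3′ UTR of each member was searched on the message strand for TGAATGT, the complement of the seed, and GAATGTA, its 7-letter form with an A opposite base 1. A match was present in 14 of 61 members (23.0%), against 22.1% of the 19392 genes with a UTR of at least 100 bases. Among the members that differed after DSS, Slc6a6, Slc1a5 and Slc1a2 had matches, and they are shown with the matching letters in capitals. The Slc6a6 matches lie at chr6:91755861-91755889 and chr6:91756070-91756098, that of Slc1a5 at chr7:16797916-16797944, and those of Slc1a2 at chr2:102784222-102784250 and chr2:102789487-102789515, each on the plus strand of GRCm38 (GENCODE M21).
Slc6a6 upstream match: gatgggacgtcTGAATGTctggtgaggat
Slc6a6 downstream match: ttccccaagcaGAATGTAttttggtgagg
Slc1a5 match: atgcttatatgTGAATGTgtccacaaatc
Slc1a2 upstream match: catcgtagatcTGAATGTccataatgatg
Slc1a2 downstream match: aggaatgggggTGAATGTgtttcctgtta
Slc6a6 and Slc1a5 were higher in DSS DKO than in DSS WT, and Slc1a2 was lower. Of the 10 tested members with a match, 2 were higher, 1 lower and 7 did not pass, and of the 33 without a match, 3 were higher, 3 lower and 27 did not pass. The median log2 fold change was 0.39 with a match and 0.28 without. A match is letters in a UTR, and binding was not measured.

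Slc1a5, at chr7:16781340-16798274, exchanges glutamine and other small neutral amino acids. Its libraries stood at 269, 251 and 310 CPM in DSS DKO, against 217, 184 and 202 in DSS WT, and at 314, 374 and 354 in baseline DKO, against 387 and 340 in baseline WT. The 4 groups formed 3 steps, with DSS WT lowest, DSS DKO between and the overlapping baseline groups highest. DKO minus WT after DSS was 0.46 ± 0.12 on the log2 scale (SE, adjusted p = 0.0292, edgeR). DSS against baseline was -0.33 ± 0.12 (adjusted p = 0.0655) in DKO and -0.86 ± 0.13 (adjusted p = 0.000908) in WT, and the interaction did not pass, at 0.53 ± 0.18 (adjusted p = 0.14). The fall in WT held in all 20 alternatives, at -0.95 to -0.76. The genotype call after DSS was lost without DSS DKO replicate 2 (0.0542) or 3 (0.0751) and without DSS WT replicate 2 (0.129) or 3 (0.0905).

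Slc6a14, at chrX:21714896-21742355, was the most abundant member and moved the other way. It had 722, 696 and 565 CPM in DSS DKO, against 911, 1005 and 844 in DSS WT, and 840, 789 and 780 in baseline DKO, against 692 and 821 in baseline WT. DSS DKO lay below DSS WT without overlap, and the baseline genotypes overlapped. DKO against WT after DSS was -0.48 ± 0.13 on the log2 scale (SE, adjusted p = 0.0311, edgeR). Neither DSS effect passed, at -0.28 ± 0.13 in DKO and 0.28 ± 0.14 in WT, nor did the interaction (-0.56 ± 0.19, adjusted p = 0.138). The call was lost without any of DSS DKO replicates 2 and 3 or DSS WT replicates 1, 2 and 3 (adjusted p 0.0662 to 0.137), and without both 18S-rich libraries (0.0583). Slc6a14 is X-linked, and Xist too was lower in DSS DKO than in DSS WT, without overlap. The part of that difference in the Slc6a14 call was not tested.

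Among basolateral members, Slc43a2, a facilitated carrier of branched-chain amino acids and phenylalanine also called LAT4, had 11.8, 15.1 and 16.0 CPM in DSS DKO, against 9.56, 7.20 and 8.75 in DSS WT. All DSS DKO libraries were above all others, since baseline DKO had 8.76, 10.3 and 11.2 CPM and baseline WT 11.1 and 10.4. After DSS, DKO against WT was 0.75 ± 0.17 on the log2 scale (SE, adjusted p = 0.0182, edgeR), and the call was lost without DSS DKO replicate 2 (0.0792), DSS WT replicate 2 (0.093) or DSS WT replicate 3 (0.0663). Slc7a6, the y+LAT2 light chain that exchanges cationic for neutral amino acids, had 22.1, 17.0 and 21.7 CPM in DSS DKO, against 28.0, 26.6 and 29.4 in DSS WT. DSS WT stood above every other group, with baseline DKO at 17.0, 16.2 and 19.7 CPM and baseline WT at 19.5 and 18.2. DKO against WT after DSS was -0.47 ± 0.14 (adjusted p = 0.0482), which was lost in 12 of 20 alternatives, among them each of DSS DKO replicates 2 and 3, DSS WT replicates 1 to 3, baseline DKO replicates 1 and 2 and baseline WT replicates 1 and 2 left out (adjusted p 0.0531 to 0.188). DSS against baseline in WT was 0.57 ± 0.16 (adjusted p = 0.016), lost without DSS WT replicate 3 (0.0559), baseline WT replicate 1 (0.0726) or baseline WT replicate 2 (0.089).

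The remaining members that differed between genotypes after DSS were of low abundance here or are known mainly from other tissues. Slc6a7, the proline carrier known from brain, had 12.3, 11.2 and 7.46 CPM in DSS DKO, against 7.01, 4.57 and 4.84 in DSS WT, and 15.3, 17.7 and 11.5 in baseline DKO, against 17.9 and 17.6 in baseline WT. The log2 fold change of DKO against WT after DSS was 0.92 ± 0.24 (SE, adjusted p = 0.028, edgeR), and the call was lost without DSS DKO replicate 1 (0.0566) or 2 (0.107) and without DSS WT replicate 2 (0.115) or 3 (0.109). In WT, DSS against baseline was -1.69 ± 0.26 (adjusted p = 0.000855), which held in all 20 alternatives, and in DKO it was -0.52 ± 0.23 (adjusted p = 0.124). Slc38a6, a member of the sodium-coupled neutral amino acid family, had 10.4, 15.3 and 16.9 CPM in DSS DKO, against 7.92, 8.69 and 8.95 in DSS WT, and its fold change was 0.74 ± 0.18 (adjusted p = 0.0248). Baseline DKO (9.60, 10.6 and 8.58 CPM) and baseline WT (10.9 and 10.6) overlapped. That call was lost without DSS DKO replicate 2 or 3, without any of the DSS WT replicates (adjusted p 0.0599 to 0.101), and without both 18S-rich libraries (0.0543).

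Slc1a2, the glutamate carrier known from astrocytes, had 0.555, 0.608 and 0.771 CPM in DSS DKO, against 0.999, 1.90 and 2.92 in DSS WT, with baseline DKO at 1.02, 0.775 and 1.22 and baseline WT at 1.37 and 1.30. The DSS WT libraries spread over a 2.92-fold range, and all lay above those of DSS DKO. DKO minus WT after DSS was -1.59 ± 0.37 on the log2 scale (SE, adjusted p = 0.0192, edgeR), lost without DSS DKO replicate 2 (0.0845), DSS WT replicate 2 (0.0582) or DSS WT replicate 3 (0.0934). Slc6a12, which carries betaine and GABA, had 0.574, 0.344 and 0.159 CPM in DSS DKO, against 1.02, 1.34 and 0.917 in DSS WT, and 0.991, 1.33 and 1.63 in baseline DKO, against 2.49 and 1.49 in baseline WT. DKO against WT after DSS was -1.58 ± 0.42 (adjusted p = 0.0323), lost without DSS DKO replicate 2 or 3 or any of the DSS WT replicates (0.0511 to 0.119) and without both 18S-rich libraries (0.0546). The DSS effect was -1.86 ± 0.42 (adjusted p = 0.00888) in DKO and -0.86 ± 0.42 (adjusted p = 0.134) in WT, and the DKO call was lost only without both 18S-rich libraries (0.054). The 7 markers of neurons and glia summed to 1.80 to 2.13 CPM in DSS DKO and 1.27 to 1.83 in DSS WT, 3 of the 7 had 0 counts in some library, and none of the 6 tested passed between genotypes. The log2 fold changes of those 6, DKO against WT after DSS, ran from -1.67 to 2.19. At baseline the 7 markers summed to 2.06 to 2.88 CPM in DKO and 3.62 to 3.88 in WT. The part of such cells in the Slc1a2 and Slc6a12 differences was not tested.

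**Figure D3:**
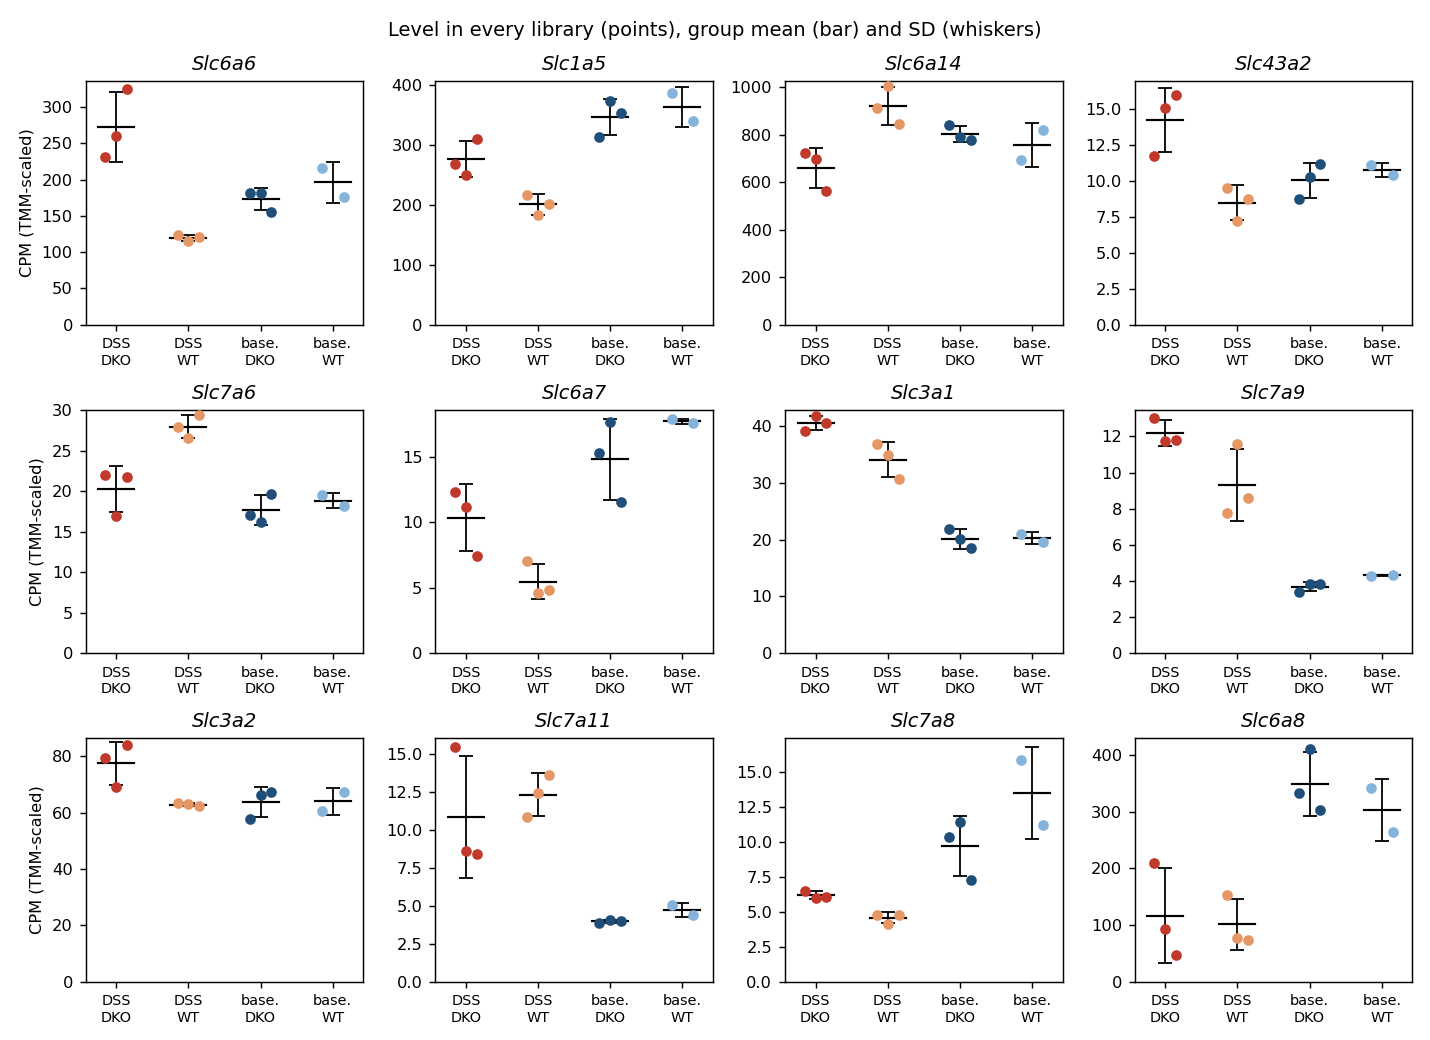
TMM-scaled CPM of 12 members in every library (points), with the group mean (bar) and SD (whiskers). In the Slc6a6 panel DSS DKO (231 to 325 CPM) lies above and DSS WT (115 to 123 CPM) below both baseline groups, and in the Slc6a8 panel the DSS libraries spread widely below baseline.

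Markers of other cells moved between the same DSS groups. The 6 neutrophil markers summed to 152 to 210 CPM in DSS DKO and 48.7 to 56.1 in DSS WT, with 4 of 6 higher in DKO. The 7 T and NK cell markers summed to 36.6 to 65.7 CPM in DSS DKO and 115 to 129 in DSS WT, with 7 of 7 lower. Of 5 enteroendocrine markers 2 were higher in DKO, at sums of 279 to 498 CPM in DSS DKO and 200 to 242 in DSS WT. Of 5 fibroblast markers 3 were higher, at sums of 216 to 363 and 281 to 331 CPM in DSS DKO and DSS WT, and of 8 colonocyte markers 1 was lower, at sums of 7648 to 9489 and 10940 to 11145 CPM. None of the 5 goblet, 5 macrophage or 4 endothelial markers passed in this comparison. The part of these shifts in the members' differences was not tested.

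At baseline, none of the 43 tested members passed between DKO and WT in edgeR's test, where 0.0260% of all genes passed (0.0104% higher and 0.0156% lower). A single member had an unadjusted p under 0.05, and DESeq2's Wald test called 0 members too, as did each of the other alternatives. The median log2 fold change was -0.08, against 0.01 over all genes, and the extremes were -0.85 and 0.70. That member was Slc7a8, the basolateral LAT2 chain, at 10.3, 11.5 and 7.28 CPM in baseline DKO, against 15.8 and 11.2 in baseline WT, with a log2 fold change of -0.48 ± 0.22 (SE, adjusted p = 1). Its groups overlapped.

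After DSS, the cystine and dibasic amino acid pair Slc3a1 and Slc7a9 and the cystine and glutamate exchanger Slc7a11 were higher than at baseline in both genotypes, and Slc1a1, Slc7a8, Slc7a4, Slc36a1 and Slc6a8 were lower in both. In DKO, 18 of 43 tested members passed edgeR's test, 9 higher and 9 lower, where 23.6% of all genes passed (12.6% higher and 11% lower). In WT, 15 passed, 5 higher and 10 lower, where 33.4% of all genes passed (16.9% higher and 16.5% lower). The members' shares were 41.9% in DKO and 34.9% in WT, and the medians were -0.23 and -0.34, against 0.01 and -0.01 over all genes. By role, apical members had 2 higher and 2 lower of 7 in DKO and 1 and 3 in WT. Basolateral members had 1 higher and 1 lower of 8 in each genotype, and neurotransmitter, osmolyte and creatine carriers had 1 higher and 3 lower of 5 in DKO and 0 and 3 in WT. Without both 18S-rich libraries, which leaves 1 baseline DKO library, 2 of the 18 DKO calls passed, Slc3a1 and Slc7a9. Goblet cell markers, 5 in all, summed to 2604 to 3050 CPM in DSS DKO and 2845 to 4280 in DSS WT, against 18814 to 21268 in baseline DKO and 22663 to 24266 in baseline WT, with 4 of 5 lower in DKO and 2 of 5 in WT. With DSS, 6 of 6 neutrophil markers were higher in DKO and 2 of 6 in WT, 1 of 7 T and NK cell markers was higher in DKO and 6 of 7 in WT, 4 of 5 enteroendocrine markers were higher in DKO and 1 higher and 1 lower in WT, and 4 of 8 colonocyte markers were lower in DKO and 1 higher and 2 lower in WT. The part of these shifts in the members' changes was not tested.

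The DSS effects in DKO and WT share no library. Among members, 10 passed in both, which is 55.6% of the DKO calls and 66.7% of the WT calls, while over all genes the shares were 59.3% and 41.9%. Of these 10, 4 rose in both (Slc3a1, Slc7a9, Slc7a11 and Slc38a11), 5 fell in both and 1, Slc6a6, rose in DKO and fell in WT. Genes that passed in opposite directions made up 51 of the 19267 tested (0.265%).

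**Figure D4:**
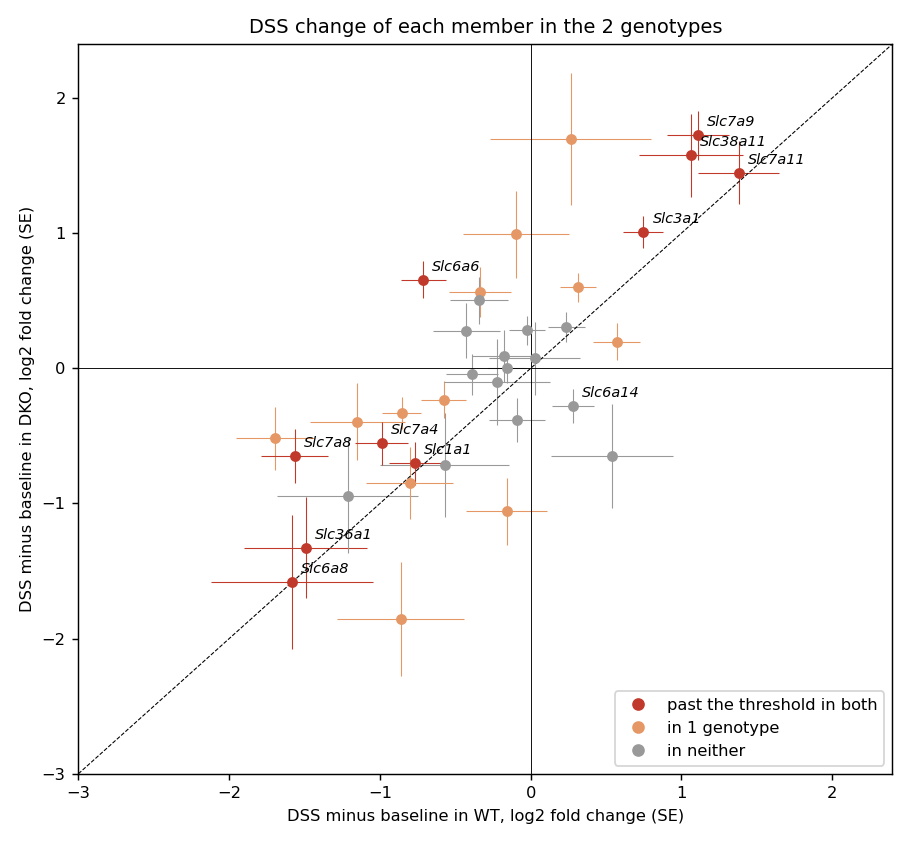
DSS minus baseline in DKO (vertical) against DSS minus baseline in WT (horizontal) for 36 members, as log2 fold changes with SE bars and a dashed line of equality. Members past the threshold in both lie in the upper right and lower left corners except Slc6a6, at -0.71 in WT and 0.65 in DKO.

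The heavy subunit Slc3a1 (rBAT, chr17:85028376-85064236) and its light chain Slc7a9 (chr7:35448796-35466036), which together take up cystine and dibasic amino acids at the apical membrane, rose together. Slc3a1 had 39.2, 41.7 and 40.6 CPM in DSS DKO and 36.8, 34.8 and 30.6 in DSS WT, against 21.9, 20.1 and 18.4 in baseline DKO and 21.0 and 19.6 in baseline WT. Slc7a9 had 13.0, 11.7 and 11.8 CPM in DSS DKO and 7.78, 11.6 and 8.57 in DSS WT, against 3.41, 3.83 and 3.81 in baseline DKO and 4.28 and 4.34 in baseline WT. For both genes all DSS libraries were above all baseline libraries. DSS against baseline in DKO was 1.01 ± 0.12 for Slc3a1 (SE, adjusted p = 0.000216, edgeR) and 1.73 ± 0.18 for Slc7a9 (adjusted p = 0.00012) on the log2 scale. In WT it was 0.75 ± 0.13 for Slc3a1 (adjusted p = 0.0019) and 1.11 ± 0.20 for Slc7a9 (adjusted p = 0.0023). All 4 calls held in every one of the 20 alternatives. Neither interaction passed, at 0.26 ± 0.17 for Slc3a1 (adjusted p = 0.458) and 0.62 ± 0.26 for Slc7a9 (adjusted p = 0.234). Per exon length, Slc3a1 was at 17.8 CPM per kb in DSS DKO against 8.87 in baseline DKO, and Slc7a9 at 4.55 against 1.37. Prepl, on the other strand, covers 26.5% of the exon bases of Slc3a1, and its own DSS change was 0.23 ± 0.09 (adjusted p = 0.0985) in DKO and 0.52 ± 0.11 (adjusted p = 0.00387) in WT. The strand setting of the counting is not given in the sources used here, so reads of such a pair cannot be told apart. The same holds for Slc6a9, of whose exon bases Ccdc24 covers 27.8%, for Slc7a4 with P2rx6 (13.3%), for Slc43a2 with Gm45606 (9.18%) and for Slc7a2 with Gm26584 (6.95%). Group means were 0.0555 to 0.279 CPM for Ccdc24, 0.476 to 0.886 for P2rx6 and 0.0314 to 0.165 for Gm45606, against 53.9 to 78.5 for Prepl.

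The other heavy subunit, Slc3a2 (CD98hc, chr19:8706882-8723369), pairs with Slc7a5, Slc7a6, Slc7a7, Slc7a8, Slc7a10 and Slc7a11. It had 79.6, 69.1 and 84.0 CPM in DSS DKO and 63.3, 63.0 and 62.3 in DSS WT, and 57.8, 66.4 and 67.2 in baseline DKO and 60.6 and 67.5 in baseline WT. DSS DKO was above every other group, yet no comparison of Slc3a2 passed. In edgeR's test the log2 fold change was 0.30 ± 0.11 for DKO against WT after DSS (adjusted p = 0.0942), 0.28 ± 0.11 for DSS against baseline in DKO (adjusted p = 0.0781) and -0.03 ± 0.12 in WT (adjusted p = 0.889).

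The light chains of Slc3a2 did not move as a block. Slc7a11, the xCT chain that imports cystine for glutathione in exchange for glutamate, had 15.5, 8.63 and 8.39 CPM in DSS DKO and 10.8, 12.5 and 13.6 in DSS WT, against 3.87, 4.04 and 4.0 in baseline DKO and 5.05 and 4.40 in baseline WT. All DSS libraries exceeded all baseline libraries, and the DSS genotypes overlapped. DSS against baseline was 1.45 ± 0.23 on the log2 scale in DKO (SE, adjusted p = 0.0015, edgeR) and 1.38 ± 0.27 in WT (adjusted p = 0.00293). The WT call held in all 20 alternatives and the DKO call in all but the fit without both 18S-rich libraries (0.0653). After DSS, DKO against WT was -0.18 ± 0.23 (adjusted p = 0.647).

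Slc7a8, the LAT2 chain of the basolateral membrane, fell. It had 6.51, 5.97 and 6.05 CPM in DSS DKO and 4.78, 4.12 and 4.81 in DSS WT, against 10.3, 11.5 and 7.28 in baseline DKO and 15.8 and 11.2 in baseline WT. No DSS library reached a baseline one, and DSS DKO lay above DSS WT. Relative to baseline, DSS libraries differed by -0.65 ± 0.20 on the log2 scale in DKO (SE, adjusted p = 0.0366, edgeR) and -1.56 ± 0.22 in WT (adjusted p = 0.000605), and neither the interaction (0.92 ± 0.30, adjusted p = 0.129) nor the genotype difference after DSS (0.44 ± 0.20, adjusted p = 0.192) passed. The WT call held in all 20 alternatives. The DKO call was lost without DSS DKO replicate 2 (0.104) or 3 (0.0789), DSS WT replicate 3 (0.0514) or baseline DKO replicate 1 (0.0987) or 2 (0.147). It was also lost with only the 2 groups fitted and without both 18S-rich libraries.

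Slc7a5, the LAT1 chain for large neutral amino acids, passed in no comparison. It had 19.8, 8.47 and 7.32 CPM in DSS DKO and 12.1, 8.58 and 8.66 in DSS WT, and 12.2, 11.8 and 14.3 in baseline DKO and 11.5 and 11.3 in baseline WT. Replicate 1 was the highest library of each DSS group, and the DSS groups overlapped with each other and with baseline. Slc7a7, the y+LAT1 chain, had 64.1, 57.8 and 64.2 CPM in DSS DKO and 43.9, 50.4 and 52.8 in DSS WT, and 56.5, 59.9 and 68.9 in baseline DKO and 55.5 and 53.7 in baseline WT. DSS WT was the lowest group, and DKO against WT after DSS was 0.34 ± 0.11 (SE, adjusted p = 0.0754, edgeR). Oxa1l, on the other strand, covers 7.00% of the exon bases of Slc7a7, and its own difference there was 0.52 ± 0.12 (adjusted p = 0.0173). Slc7a10 was near silent, with 4 counts over all 11 libraries, as was Slc7a13, a light chain not among the Slc3a2 partners named above, with 1 count.

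Slc7a11 is a textbook target of ATF4, which binds the C/EBP-ATF response element, and its promoter is shown because it holds that motif and the gene rose after DSS in both genotypes. The window is RefSeq's for GRCm38.p6, chr3:50443564-50443863 on the minus strand, 250 bases before to 50 after the start, with the motif TGATGNAA in capitals, 1 copy on each strand at -66 and -47 from the start.
Slc7a11 promoter: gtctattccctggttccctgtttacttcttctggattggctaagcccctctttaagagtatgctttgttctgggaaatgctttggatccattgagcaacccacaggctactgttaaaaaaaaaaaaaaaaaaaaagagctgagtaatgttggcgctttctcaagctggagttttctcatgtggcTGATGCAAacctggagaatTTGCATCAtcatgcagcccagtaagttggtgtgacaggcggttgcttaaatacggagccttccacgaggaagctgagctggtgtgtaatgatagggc
The motif was searched on both strands and occurred in 5 of 64 member windows (7.81%) and in 3.97% of all 32851 windows of that length. Windows were counted, not sites, and the Slc7a7 windows with the motif overlap and share 1 copy, which was counted in each. The windows belonged to 43 members, of which 4 had the motif, namely Slc7a11, Slc1a4, Slc6a21 and Slc7a7. Slc1a4, the ASCT1 exchanger, and Slc7a7 passed in no comparison, and Slc6a21 was not tested. The motif is letters in a window. Binding of ATF4 was not measured, and its part in the rise of Slc7a11 was not tested.

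Among apical members, Slc1a1, the glutamate and cysteine carrier EAAT3, fell to 22.8, 16.1 and 16.7 CPM in DSS DKO and 18.7, 20.5 and 17.2 in DSS WT, against 31.8, 31.9 and 26.9 in baseline DKO and 29.4 and 34.6 in baseline WT. No DSS library reached a baseline one. DSS against baseline was -0.70 ± 0.16 on the log2 scale in DKO (SE, adjusted p = 0.00801, edgeR) and -0.77 ± 0.17 in WT (adjusted p = 0.00619). The DKO call was lost without both 18S-rich libraries (0.185) and the WT call without baseline WT replicate 2 (0.0619). The annotated gene 4430402I18Rik, on the other strand, covers 31.9% of its exon bases. Slc36a1, the proton-coupled carrier PAT1 of small amino acids, was singled out with Slc6a8 and Slc6a19 after their values were seen. It had 62.2, 33.4 and 24.2 CPM in DSS DKO and 55.4, 35.3 and 31.6 in DSS WT, against 107, 121 and 72.2 in baseline DKO and 138 and 91.6 in baseline WT. The change with DSS was -1.33 ± 0.37 in DKO (adjusted p = 0.0316) and -1.49 ± 0.41 in WT (adjusted p = 0.0211). The DKO call was lost without DSS DKO replicate 2 (0.0967), baseline DKO replicate 1 (0.0671) or 2 (0.101) and both 18S-rich libraries (0.374), and the WT call without DSS WT replicate 2 (0.0634) or 3 (0.0617) or baseline WT replicate 1 (0.155).

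Slc6a8, which takes up creatine and lies at chrX:73673150-73682502, was among the 3 most abundant members per length at baseline. It had 210, 93.7 and 46.4 CPM in DSS DKO and 153, 77.6 and 72.8 in DSS WT, against 332, 411 and 303 in baseline DKO and 341 and 264 in baseline WT. The DSS DKO libraries spanned a 4.52-fold range, and none reached baseline. DSS against baseline was -1.58 ± 0.50 on the log2 scale in DKO (SE, adjusted p = 0.0467, edgeR) and -1.58 ± 0.54 in WT (adjusted p = 0.0475). Both calls were near the threshold, and that in DKO was lost with only the 2 groups fitted. Each was lost without DSS DKO replicate 2, without DSS WT replicate 2 or 3, and without any of the 5 baseline libraries, at adjusted p 0.0504 to 0.13 in DKO and 0.0578 to 0.208 in WT, and without both 18S-rich libraries (0.311 in DKO and 0.0861 in WT). DKO against WT after DSS was 0.21 ± 0.49 (adjusted p = 0.827). Slc6a8 is X-linked, and the DSS and baseline libraries differ in Xist and Ddx3y, so sex cannot be told apart from DSS in its fall.

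Slc7a4, a relative of the cationic amino acid carriers whose transport role is unsettled, and Slc38a11, of the sodium-coupled family, changed with DSS in opposite directions. Slc7a4 had 13.9, 18.6 and 19.5 CPM in DSS DKO and 13.8, 10.6 and 12 in DSS WT, against 23.3, 25.1 and 28.1 in baseline DKO and 23.4 and 24.6 in baseline WT. Its DSS change was -0.56 ± 0.16 on the log2 scale in DKO (SE, adjusted p = 0.0259, edgeR) and -0.99 ± 0.18 in WT (adjusted p = 0.00193). The WT call held in all 20 alternatives, and the DKO call was lost without DSS DKO replicate 1 (0.0531) or 2 (0.0511), baseline DKO replicate 2 (0.0664) or 3 (0.0764) and both 18S-rich libraries (0.119). Slc38a11 had 1.94, 4.03 and 4.06 CPM in DSS DKO and 2.65, 3.17 and 2.61 in DSS WT, against 1.27, 0.847 and 1.24 in baseline DKO and 1.19 and 1.49 in baseline WT. All its DSS libraries were above baseline, at log2 fold changes of 1.58 ± 0.31 in DKO (adjusted p = 0.00423) and 1.07 ± 0.35 in WT (adjusted p = 0.0338). The WT call was lost without DSS WT replicate 2 (0.0961) or 3 (0.0663), baseline WT replicate 1 (0.201) or 2 (0.0815) and both 18S-rich libraries (0.0558), and the DKO call without the last of these (0.126).

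Slc38a2, the amino acid-responsive carrier SNAT2, had 352, 336 and 340 CPM in DSS DKO and 257, 330 and 301 in DSS WT, against 218, 229 and 232 in baseline DKO and 231 and 246 in baseline WT. Both DSS groups lay above baseline. With DSS, the change from baseline was 0.60 ± 0.11 on the log2 scale in DKO (SE, adjusted p = 0.0026, edgeR), lost without both 18S-rich libraries (0.0995), and 0.31 ± 0.12 in WT (adjusted p = 0.0642), and the interaction did not pass (0.29 ± 0.16, adjusted p = 0.366).

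The other calls after DSS were each made in 1 genotype, and the interaction passed for none of them. Those named were chosen after their values were seen. In DKO, Slc6a19, the apical neutral amino acid carrier B0AT1, stood at 1.70 ± 0.49 on the log2 scale (SE, adjusted p = 0.0264, edgeR), from 1.15, 3.02 and 6.21 CPM in DSS DKO against 1.24, 0.726 and 1.22 in baseline DKO. DSS DKO replicate 1 was below baseline DKO replicates 1 and 3 and below both baseline WT libraries (1.25 and 1.40 CPM). The Slc6a19 call was lost without DSS DKO replicate 2 (0.0521) or 3 (0.11) or baseline DKO replicate 1 (0.0579), 2 (0.104) or 3 (0.0563). It was also lost with only the 2 groups fitted and without both 18S-rich libraries. Slc7a2, a cationic amino acid carrier, was higher at 0.99 ± 0.32 (adjusted p = 0.0429), and Slc38a6 at 0.57 ± 0.18 (adjusted p = 0.0434). Slc43a1, the LAT3 carrier, was lower at -1.06 ± 0.25 (adjusted p = 0.00985), and Slc6a9, the glycine carrier GlyT1, at -0.85 ± 0.26 (adjusted p = 0.0369). All 4 of these were lost without both 18S-rich libraries, and Slc7a2, Slc38a6 and Slc6a9 also without DSS DKO replicate 2 or 3 and without baseline DKO replicate 1 or 3. Slc6a9 and Slc38a6 were further lost without baseline DKO replicate 2, Slc7a2 and Slc38a6 without DSS WT replicate 2 or either baseline WT library, Slc38a6 without DSS WT replicate 3 and Slc7a2 without DSS DKO replicate 1. The Slc38a6 call was also lost with DESeq2 size factors, with no filter or a strict one, with Rn18s-rs5 removed and with only the 2 groups fitted, 15 of 20 alternatives in all, and the Slc7a2 call with only the 2 groups fitted. Their adjusted p-values reached 0.158 for Slc7a2, 0.196 for Slc38a6, 0.0721 for Slc43a1 and 0.19 for Slc6a9. In WT, the lysosomal Slc38a7 was lower at -0.58 ± 0.15 (adjusted p = 0.013) and the serotonin transporter Slc6a4 at -1.15 ± 0.31 (adjusted p = 0.0173), both lost without DSS WT replicate 2 or either baseline WT library (adjusted p up to 0.0821 and 0.0939), and Slc6a4 also without DSS WT replicate 3.

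Libraries of a group also differed from each other in the members, which is given as a description with no test. Over the 36 members with a mean of at least 1 CPM in some group, the highest library was a median of 1.55 times the lowest in DSS DKO, 1.27 times in DSS WT, 1.22 times in baseline DKO and 1.11 times in baseline WT, the last from 2 libraries. The ratio was above 2 for 10 members in DSS DKO, 4 in DSS WT and 0 in either baseline group. It was not computed over all genes, so these counts cannot be read as a trait of the members. Slc6a19 had the widest range, at 5.42 times in DSS DKO.

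Other genes of amino acid handling were counted in 4 lists in the same edgeR fit, in which 11.2% of all genes passed between genotypes after DSS, 23.6% with DSS in DKO and 33.4% with DSS in WT. Of 14 tested genes for other amino acid and peptide transport, DKO after DSS had 1 higher and 1 lower than WT (14.3%). Slc17a9, a vesicular nucleotide carrier, was higher, at a log2 fold change of 0.61 ± 0.11 (SE, adjusted p = 0.00646), and held in all 20 alternatives. The peptide transporter Slc15a1 (PepT1) was lower, averaging 10.4 ± 3.86 CPM in DSS DKO against 21.9 ± 0.570 in DSS WT (SD, n = 3 per group), with a log2 fold change of -1.07 ± 0.21 (adjusted p = 0.00929), lost without DSS DKO replicate 2 (0.0548). Against baseline, DKO had 1 higher and 3 lower (28.6%), among them Slc15a1 at -2.11 ± 0.22 (adjusted p = 9.8e-05), and WT had 2 higher and 5 lower (50%).

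Of 23 genes of the ATF4 response to amino acid shortage, DKO after DSS had 2 higher (Nupr1 and Atf4) and 2 lower (Phgdh and Cth) than WT (17.4%). DSS against baseline had 6 higher and 4 lower in DKO (43.5%) and 5 higher and 4 lower in WT (39.1%). Nupr1 held in all 20 alternatives, Phgdh was lost without DSS DKO replicate 2 (0.0518), Cth without DSS DKO replicate 2, DSS WT replicate 2 or 3 or both 18S-rich libraries (up to 0.098), and Atf4 held in 5 of the 20. Asns, the asparagine synthetase gene of this list, did not pass between genotypes after DSS, at 0.08 ± 0.18 (SE, adjusted p = 0.81, edgeR). It did not pass with DSS in DKO (0.14 ± 0.18, adjusted p = 0.589) or WT (0.26 ± 0.20, adjusted p = 0.326) either. With DSS in DKO the list's lowest p were those of Atf3 (2.02 ± 0.30, adjusted p = 0.00144), Ddit4, Ddit3 and Ppp1r15a, all higher. In WT they were those of Ddit4 and Cth, both higher, and Gpt2 and Nupr1, both lower. Of 19 genes of amino acid sensing by mTORC1, DKO after DSS had 2 higher (Flcn and Nprl3) and 1 lower (Nprl2) than WT (15.8%), while DSS against baseline had 2 higher and 1 lower in DKO (15.8%) and 5 higher and 3 lower in WT (42.1%). Of 12 glutathione and Nrf2 genes, DKO after DSS had 2 higher (Ggt1 and Hmox1) and 0 lower than WT (16.7%), and DSS against baseline had 3 higher and 0 lower in DKO (25%) and 6 higher and 1 lower in WT (58.3%). Flcn and Ggt1 held in all 20 alternatives, Nprl2 and Nprl3 each in 7 and Hmox1 in 9. The DSS calls in DKO were checked for genes among the lowest p of a list in any comparison. Of these calls, Atf3, Ggt1, Srxn1 and Slc15a1 passed without both 18S-rich libraries. Those of Atf4, Ddit3, Ddit4, Gpt2, Phgdh, Ppp1r15a, Fnip1, Sesn1, Nprl2, Txnrd1, Ctns, Slc15a3 and Slc17a9 were lost (adjusted p 0.074 to 0.282). At baseline no gene of the 4 lists passed between genotypes.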

How the data were processed

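Raw, unnormalized counts of 11 libraries were taken from the table the authors deposited, whose values are whole numbers, and every column was matched to a sample by name. Per the submitters' processing notes, STAR and mouse build mm10 were used. The counter, the annotation and how strand was treated are stated in none of these notes or the labels. Genes were tested with edgeR 4.0.16 in R 4.3.3: filterByExpr at a minimum count of 10 (19267 genes), TMM, a robust quasi-likelihood fit with 1 mean per group over all libraries (common biological coefficient of variation 0.234), two-sided F-tests and Benjamini-Hochberg adjustment over all genes tested, called under 0.05. Standard errors are the fold change over the square root of F. Level per length used merged exons of GENCODE M21 (GRCm38). Libraries of a group differed beyond sampling noise (chi-square per degree of freedom 15.1 to 823). Rn18s-rs5 was among the genes counted, and the values were 244 to 823 in baseline DKO, whose 18S shares differ, against 15.1 to 161 in the other groups. The alternatives were DESeq2 1.42.0, other scalings and filters, a fit of only the 2 groups, the replicate number as a block, each library left out and, chosen after seeing the data, both 18S-rich libraries left out. The methods were tested on simulated counts.

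Members, lists, roles and tests were chosen with earlier results of these data known. Values in every library are given for members that passed between genotypes or in the interaction with a mean of at least 1 CPM in some group, the 12 members with the lowest p for DSS with groups that do not overlap, and heavy subunits with their light chains. Results of 1 member, which stays in the counts, and of 1 gene of the list of other transport genes, which was left out of it, are not reported here.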

Additional observations from a re-analysis of the deposited data

Results flagged for a closer look

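In 3 genes described above the difference between genotypes was not the same after DSS as at baseline, by the interaction term of the edgeR fit, adjusted over all genes tested. For the member Slc6a6 the difference between the 2 effects was 1.37 on the log2 scale (adjusted p = 0.0123). It was 1.89 for Ggt1 (adjusted p = 0.0123) and -1.24 for Phgdh (adjusted p = 0.0495). Ggt1, which splits extracellular glutathione, averaged 24.9 CPM in DSS DKO, against 5.55 in DSS WT, and 3.63 in baseline DKO, against 3.00 in baseline WT. Phgdh, which starts serine synthesis, averaged 12.9 CPM in DSS DKO, against 24.2 in DSS WT, and 20.5 in baseline DKO, against 16.3 in baseline WT. The interaction call of Ggt1 was lost without baseline WT replicate 1 and without both 18S-rich libraries (adjusted p up to 0.0783), and that of Phgdh held in 7 of the 19 alternatives that can test it (up to 0.207). Sex and the 18S share differ between the DSS and baseline libraries, and their part in these interactions was not tested.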

How the results depend on the processing

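Of 43 calls of members, 10 held in all alternatives and 33 were lost in at least 1, and none changed direction. After DSS, 9 members passed between genotypes, 1 with only the 2 groups fitted, 5 without both 18S-rich libraries and 1 to 13 with a library left out. For DSS in WT the count was 15, and 8 to 19 with a library left out. For DSS in DKO it was 18, then 10 to 20 and, without both 18S-rich libraries, 2. The interaction count was 1, with DESeq2's Wald test 4, with no filter 2, without both 18S-rich libraries 0 and with a library left out 0 to 6. At baseline it was 0 throughout. The cause was not tested. Where a group was left with 1 library, that library was assumed to vary like the others. Over all genes, leaving out a library gave 691 to 3064 calls after DSS (2165 with all), 1 to 5 at baseline (5), 2605 to 5788 for DSS in DKO (4545), 2775 to 7378 in WT (6432) and 2 to 1498 for the interaction (302), and the other planned settings 1372 to 3232, 3 to 79, 3118 to 5590, 6007 to 7317 and 297 to 1469. Without both 18S-rich libraries the counts were 1580, 1, 957, 5607 and 86.

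Same-numbered libraries did not deviate together throughout (correlations of deviations -0.07 to 0.30), so the numbers were taken as names only. Between DSS DKO and DSS WT the correlations were 0.30, 0.02 and 0.20 for replicates 1, 2 and 3, and what these libraries may share was not tested. With the replicate number as a block, 9 members passed after DSS, 0 at baseline, 20 for DSS in DKO, 17 in WT and 1 in the interaction. With the longest transcript in place of merged exons, Slc6a14 and Slc1a5 stayed the most abundant per length in each group. Slc1a2, Slc6a12, Slc38a11, Slc6a19 and Slc7a2 rest on few counts, which limits their precision.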
